A study of Arabidopsis thaliana with 5 samples.

Results

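The aquaporin family of Arabidopsis thaliana was examined in seedlings of the mutant Atino80-5. The mutant takes its name from INO80, whose protein is the motor subunit of a complex that moves and exchanges nucleosomes. The members were the 35 loci of the family, taken as a fixed list of locus names. They comprise 5 PIP1, 8 PIP2, 10 TIP, 9 NIP and 3 SIP genes. All 35 had a probe on the array, and 33 of them were among the 26657 genes and transcripts tested. The groups were 3 arrays of Atino80-5 and 2 arrays of wild type, each of RNA from whole seedlings 12 days old. All seedlings shared MS medium at 22 °C with 16 h of light and 8 h of dark. The labels give neither the kind of mutation nor the accession the mutant was made in, and 1 mutant allele stands for the genotype. Nor do they say if the seedlings behind each array were grown apart, so a p-value here reflects variation from array to array that may be technical only.

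Aquaporins are membrane channels that pass water and, in some members, small uncharged solutes. PIPs sit mainly in the plasma membrane, TIPs mainly in the tonoplast that encloses the vacuole, and SIPs mainly in the endoplasmic reticulum. NIPs resemble the nodulin 26 protein of legume root nodules, and several pass boric acid or arsenite. In seedlings, PIPs and TIPs together let water cross cells in root uptake, leaf supply and cell expansion.

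The values below are processed signals, the scanner's background-subtracted brightness of a probe, scaled so that the 75th percentile of each array was the same (4582). They compare arrays at 1 probe, and levels of different genes were not compared. A change is the log2 difference of Atino80-5 minus wild type, given with the moderated standard error (SE, 3 and 2 arrays) of limma. A gene was called higher or lower at an adjusted p under 0.05 over all genes tested. On each array 77.3% to 81.6% of 43603 probes were well above background, and no probe spot was saturated. Arrays of a genotype correlated across genes at 0.9951 to 0.9964, and arrays of different genotypes at 0.9799 to 0.9817. The probe A_84_P20358 of INO80 gave 63.6, 54.4 and 59.9 in Atino80-5, against 9604 and 9472 in wild type. A second INO80 probe, A_84_P835513, was higher in the mutant, at 516, 478 and 467 in Atino80-5, against 134 and 126 in wild type. The first probe thus tells the labelled genotypes apart, and which stretch of the transcript each probe reads was not used here.

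Of the 33 aquaporins tested, 8 were higher in Atino80-5, 13 were lower and 12 were not called. The called share of 63.6% stood beside 57.1% of all genes tested. The higher share was 24.2% against 30.7% of all genes, and the lower share 39.4% against 26.4%. Among calls, 38.1% were higher in the family and 53.8% over all genes. With each array scaled by its median these became 34.8% and 42.9%. Most changes were small. Called changes of at least 1.5-fold were found in 4 members, or 12.1%, against 16.2% of all genes, and of at least 2-fold in 1 member, or 3.03%, against 7.23%. The median change of the family was -0.088, against 0.0071 over all genes. The scaled signals of the genotypes did not overlap for 25 members, or 75.8%, against 74.6% of all genes.

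**Figure D1:**
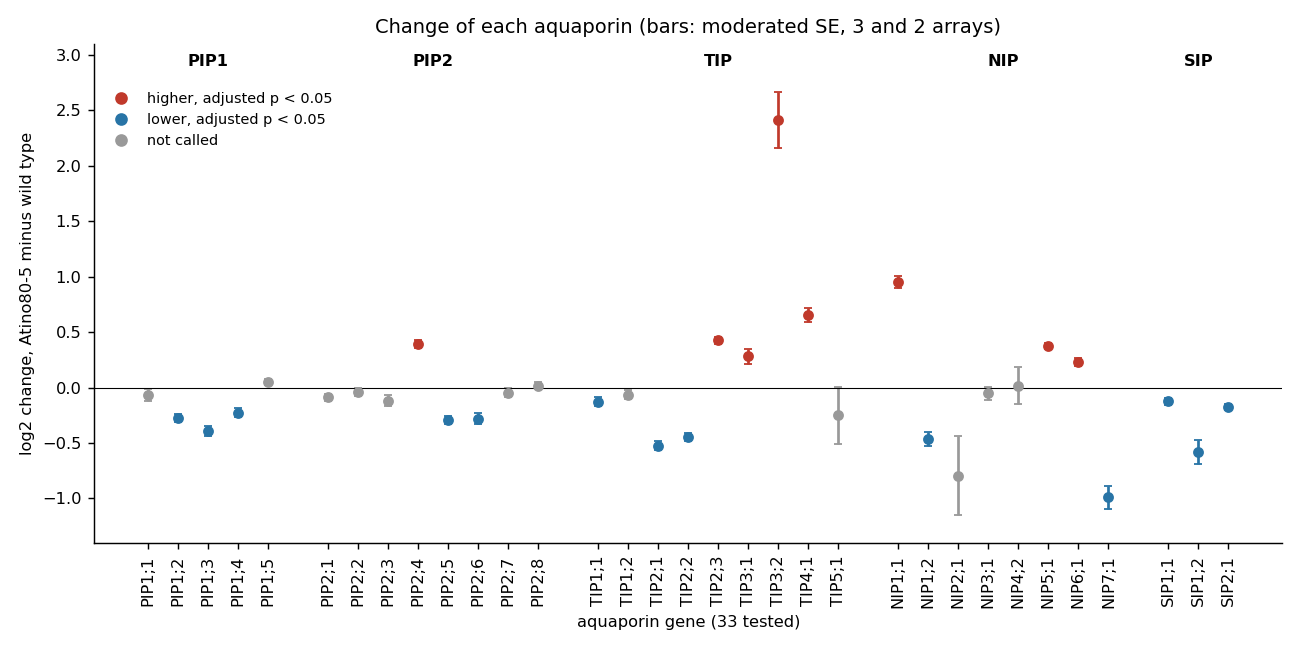
Log2 change (vertical axis, Atino80-5 minus wild type) of each of the 33 tested aquaporins (horizontal axis), grouped by subfamily, with bars for the moderated SE over 3 and 2 arrays. Red points were called higher, blue points lower and grey points not called. TIP3;2 stands at 2.42 and NIP7;1 at -0.99, with most other members within 0.5 of 0.

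By subfamily, all 3 SIP genes were lower. In PIP1, 3 of 5 genes were lower and 0 higher by limma, and 0 were also higher at an unadjusted p under 0.05. In PIP2, 1 of 8 was higher and 2 were lower. Of the 9 TIP genes tested, 4 were higher and 3 lower, and of the 8 NIP genes tested, 3 were higher and 2 lower. The median changes were -0.23 for PIP1, -0.067 for PIP2, -0.065 for TIP, -0.017 for NIP and -0.18 for SIP. All of these medians moved with the scaling, and that of TIP changed sign. With quantile normalization the medians were -0.17 for PIP1, -0.0074 for PIP2, 0.028 for TIP, -0.15 for NIP and -0.20 for SIP. In the authors' value table they were -0.17 for PIP1, -0.0079 for PIP2, 0.025 for TIP, -0.15 for NIP and -0.20 for SIP. With median scaling they were -0.29 for PIP1, -0.13 for PIP2, -0.12 for TIP, -0.076 for NIP and -0.24 for SIP. The NIP median turned to 0.065 without Atino80-5 array 1 and 0.045 without wild type array 2. Taken array by array against the wild type mean, the median PIP1 gene changed by -0.20, -0.25 and -0.24 on Atino80-5 arrays 1, 2 and 3, against -0.021 and 0.021 on the wild type arrays. For SIP the same medians were -0.19, -0.18 and -0.17 in Atino80-5, against 0.024 and -0.024 in wild type. For PIP2 they were -0.067, -0.058 and -0.086 in Atino80-5, against -0.0041 and 0.0041 in wild type. Every mutant array thus stood below both wild type arrays in these 3 subfamilies, by less in PIP2. Over the tested TIP genes the medians were -0.013, 0.19 and -0.097 in Atino80-5, against -0.029 and 0.029 in wild type. Over the tested NIP genes they were -0.18, 0.13 and -0.0029 in Atino80-5, against 0.010 and -0.010 in wild type. These had no common sign on the 3 mutant arrays. No difference between subfamilies was tested.

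In maize, PIP1 proteins reach the plasma membrane well only together with PIP2 proteins, with which they form mixed tetramers. PIP1;3 (AT1G01620) gave scaled signals of 150863, 144393 and 138856 in Atino80-5, against 191480 and 187346 in wild type. Every Atino80-5 array lay below both wild type arrays, and the gene fell by 0.39 ± 0.044 (1.31-fold, adjusted p = 0.0021, limma). PIP1;2 (AT2G45960), which contributes to water transport in roots and rosettes, fell by 0.28 ± 0.036 (1.21-fold, adjusted p = 0.0031). Its scaled signals were 96342, 92211 and 96771 in Atino80-5, against 113507 and 116830 in wild type. PIP1;4 (AT4G00430), known to be induced by drought, fell by 0.23 ± 0.041 (adjusted p = 0.0088), a smaller fall of 1.17-fold. The representing probe had signals of 52047, 50218 and 50610.1 in Atino80-5, against 57723 and 61636 in wild type, without overlap. PIP1;1 (AT3G61430) and PIP1;5 (AT4G23400) were not called, with changes of -0.064 and 0.049. The second of them was called higher with quantile normalization (0.093, adjusted p = 0.045), in the authors' value table (0.093, adjusted p = 0.045) and with the mean of its probes (0.12, adjusted p = 0.017), and stood at -0.0099 with median scaling. The first stood at 0.024 with quantile normalization and was not called there.

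The PIP2 proteins form the efficient water channels of the plasma membrane. PIP2;6 (AT2G39010), which is expressed in leaf veins, had signals of 67375, 68475 and 70576 in Atino80-5, against 87193 and 80112 in wild type. The 3 mutant arrays were below both wild type arrays, a fall of 0.28 ± 0.049 (1.21-fold, adjusted p = 0.0079). PIP2;5 (AT3G54820) had a dim probe, at 61.0, 63.9 and 63.4 in Atino80-5, against 75.7 and 78.0 in wild type. This drought-induced gene fell by 0.29 ± 0.035 (1.22-fold, adjusted p = 0.0024), and its arrays did not overlap either. PIP2;4 (AT5G60660), a gene expressed mostly in roots, was called higher. It had signals of 1499, 1429 and 1454 in Atino80-5, against 1090 and 1137 in wild type, without overlap, and rose by 0.39 ± 0.037 (1.31-fold, adjusted p = 0.0011). The main root PIP2 genes PIP2;1 (AT3G53420) and PIP2;2 (AT2G37170) changed by -0.088 and -0.038 and were not called, nor were PIP2;3 (AT2G37180), PIP2;7 (AT4G35100) and PIP2;8 (AT2G16850) (-0.12, -0.046 and 0.017). With median scaling PIP2;1 was called lower at -0.15 (adjusted p = 0.021), while it stood at -0.0050 with quantile normalization (adjusted p = 0.89), and the authors' value table gave -0.0058 (adjusted p = 0.88). PIP2;3 was called lower in 4 alternatives, at -0.18 with median scaling, -0.16 with quantile normalization and in the authors' value table, and -0.12 with trended and robust eBayes. PIP2;2 and PIP2;7 turned to 0.0080 and 0.037 with quantile normalization, not called. PIP2;2 and PIP2;3 are neighbours on chromosome 2 in the RefSeq gene table and close copies, so their probes could share signal.

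Over the family 77 probes were tested, of which 39 were lower, 10 higher and 28 not called. Of these probes 58 belong to 14 genes, so a gene with several probes counts more than once. Among all 35203 probes tested 55.5% were called, 26.4% lower and 29.1% higher. The PIP genes carried up to 6 tested probes each. All 6 tested probes of PIP1;2 were lower, with changes from -0.39 to -0.27, and all 5 of PIP2;6, from -0.42 to -0.18. Of 4 probes of PIP1;3, 3 were lower, from -0.41 to -0.39, and the remaining dim one gave -0.049. None of the 6 probes of PIP2;1 and the 5 of PIP2;7 was called at an adjusted p under 0.05, and their changes ran from -0.088 to -0.025. The 2 probes of PIP1;5 differed in call. The probe A_84_P14777 gave 22584, 22064 and 22917 in Atino80-5, against 19825 and 19824 in wild type, a rise of 0.18 (adjusted p over probes = 0.0064), while the brighter probe that represents the gene gave 0.049 (adjusted p over probes = 0.24).

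PIP1;4 had the widest spread between probes. RefSeq lists more than 1 transcript for this gene, and the array's design assigns 4 of its probes to one and A_84_P809477 to another. That single probe gave 627, 592 and 633 in Atino80-5, against 1051 and 1129.9 in wild type. These groups were far apart, with a fall of 0.82 ± 0.051 (1.77-fold, adjusted p over probes = 0.00032). The other 4 probes changed by -0.25 to -0.15, and A_84_P856515 among them was not called (adjusted p over probes = 0.091). Where each probe lies on the gene was not used here, and the difference between probes was not tested.

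**Figure D2:**
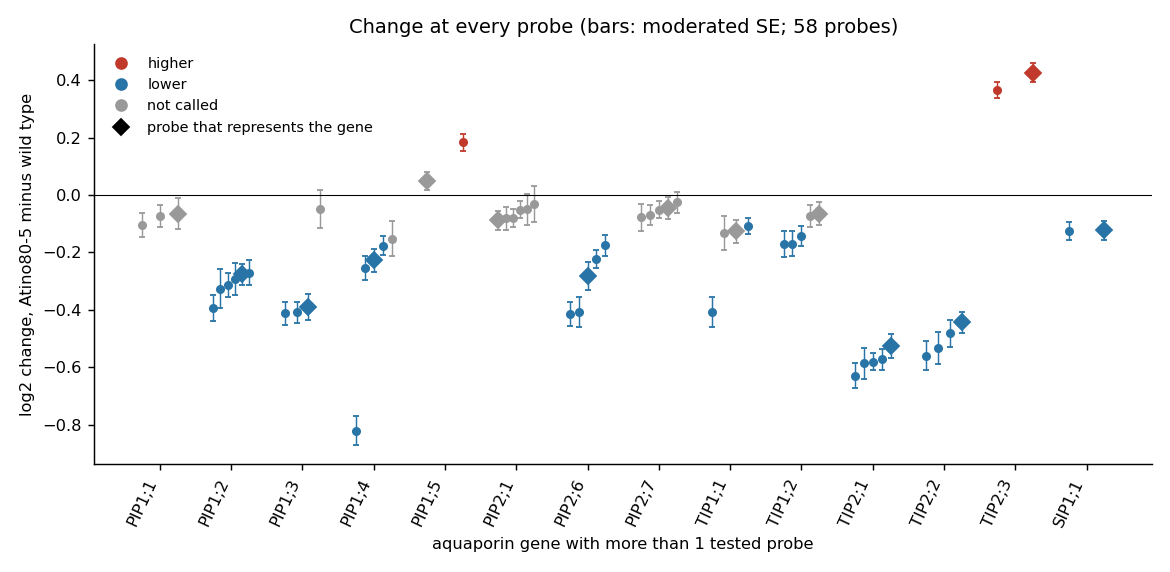
Log2 change (vertical axis, Atino80-5 minus wild type, bars for the moderated SE) at each of the 58 tested probes of the 14 aquaporins with more than 1 tested probe (horizontal axis). Diamonds mark the probe that represents the gene in the counts. The probes of delta-TIP (TIP2;1) all lie between -0.63 and -0.53, while 1 probe of PIP1;4 stands at -0.82, apart from its other 4.

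TIP genes were called in both directions. TIP2;1 (AT3G16240), or delta-TIP, able to pass ammonia as well as water, had signals of 125908, 128426 and 119507 in Atino80-5, against 178328 and 180504 in wild type. The mutant arrays stood far below wild type, a fall of 0.53 ± 0.041 (1.44-fold, adjusted p = 0.00062, limma). All 5 of its probes were lower, by 0.53 to 0.63. TIP2;2 (AT4G17340), its close relative, had signals of 33785, 33576 and 32961 in Atino80-5, against 44247 and 46721 in wild type, again without overlap. It fell by 0.44 ± 0.035 (1.36-fold, adjusted p = 0.00069), and its 4 probes changed by -0.56 to -0.44. The third gene of this group, TIP2;3 (AT5G47450), changed the other way. Its signals were 1668, 1588 and 1652 in Atino80-5, against 1219 and 1215 in wild type, a rise of 0.43 ± 0.033 (1.34-fold, adjusted p = 0.00062), and its second probe rose by 0.37. Both of these last genes are expressed mostly in roots.

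TIP4;1 (AT2G25810), a root gene whose protein passes urea when made in yeast, had signals of 799.7, 772 and 768 in Atino80-5, against 465 and 527 in wild type. It rose by 0.66 ± 0.063 (1.57-fold, adjusted p = 0.0012), with every mutant array above both wild type arrays. The genes TIP1;1 (AT2G36830), or gamma-TIP, and TIP1;2 (AT3G26520), which mark the large vacuole of vegetative cells, changed little. Gamma-TIP fell by 0.13 ± 0.040 (adjusted p = 0.0488), and the other gene, at -0.065, was called only with the mean of its probes (-0.12, adjusted p = 0.033), and stood at 0.028 with quantile normalization. The gamma-TIP signals were 84222, 81215 and 79272 in Atino80-5, against 87264 and 90770.1 in wild type, which left a narrow gap between the genotypes. Over all probes tested, this representing probe had an adjusted p of 0.0504 and was not called. Of their 9 probes 5 were lower, and none was higher. A dim gamma-TIP probe, A_84_P807528, fell by 0.41.

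The seed TIPs, alpha-TIP and beta-TIP, belong to the protein storage vacuoles of maturing seeds. Beta-TIP, or TIP3;2 (AT1G17810), had low signals of 85.5, 69.8 and 95.5 in Atino80-5, against 12.2 and 19.8 in wild type. It was well above background on all 3 Atino80-5 arrays and on 1 of the 2 wild type arrays, and it rose by 2.42 ± 0.25 (5.33-fold, adjusted p = 0.0016, limma). With normexp background correction its change was 0.80, below the 0.87 of NIP1;1 in that setting, whereas with 75th percentile scaling alone it was the largest rise of the family. Alpha-TIP, or TIP3;1 (AT1G73190), had signals of 60.3, 63.9 and 59.2 in Atino80-5, against 47.3 and 53.4 in wild type, close to each other though without overlap. Its rise of 0.28 ± 0.068 (adjusted p = 0.022) was no longer called without Atino80-5 array 1 or 2 or wild type array 1, where it was 0.29, 0.25 and 0.19. It was 0.071 with normexp (adjusted p = 0.13), and 0.18 with quantile normalization (adjusted p = 0.069). The authors' value table also gave 0.18 (adjusted p = 0.068), and none of these was called. Other seed genes were measured beside them. Of 8 seed maturation markers, 5 were higher, 0 lower and 3 not called by limma, and 0 were lower at an unadjusted p under 0.05. Of all genes tested 30.7% were higher and 26.4% lower. Among the markers called higher, CRU2, OLEO1 and SESA1 passed the filter through Atino80-5 arrays alone. They could hardly have been called lower, so the count of 5 cannot be read against these shares. CRA1 and CRU3 were the others called higher, and CRU3 was well above background on 1 of the 2 wild type arrays. The summed signal of the 8 markers was 691 to 765 on the Atino80-5 arrays, against 278 to 318 in wild type. The largest part of the sums was CRA1, at 352, 390 and 374 in Atino80-5, against 155 and 172 in wild type. OLEO2, PER1 and ABI3 were not called, with changes of 0.13, -0.20 and -0.15. Whether the seed marker changes contribute to the TIP3 values was not tested. The whole-seedling samples cannot tell fewer cells of a type from less RNA per cell, here and for any other gene in these data.

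The pollen genes TIP1;3 (AT4G01470) and NIP4;1 (AT5G37810) were not well above background on any array and were not tested. The tonoplast gene had signals of 2.89, 2.46 and 4.67 in Atino80-5, against 3.22 and 2.87 in wild type, and the NIP gene 3.42, 2.95 and 5.37 in Atino80-5, against 3.72 and 3.36 in wild type. TIP5;1 (AT3G47440) and NIP4;2 (AT5G37820), also pollen genes, were well above background on 4 arrays and changed by -0.25 ± 0.26 and 0.018 ± 0.17, neither called. The 2 NIP4 genes are neighbours on chromosome 5 in the RefSeq gene table.

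**Figure D3:**
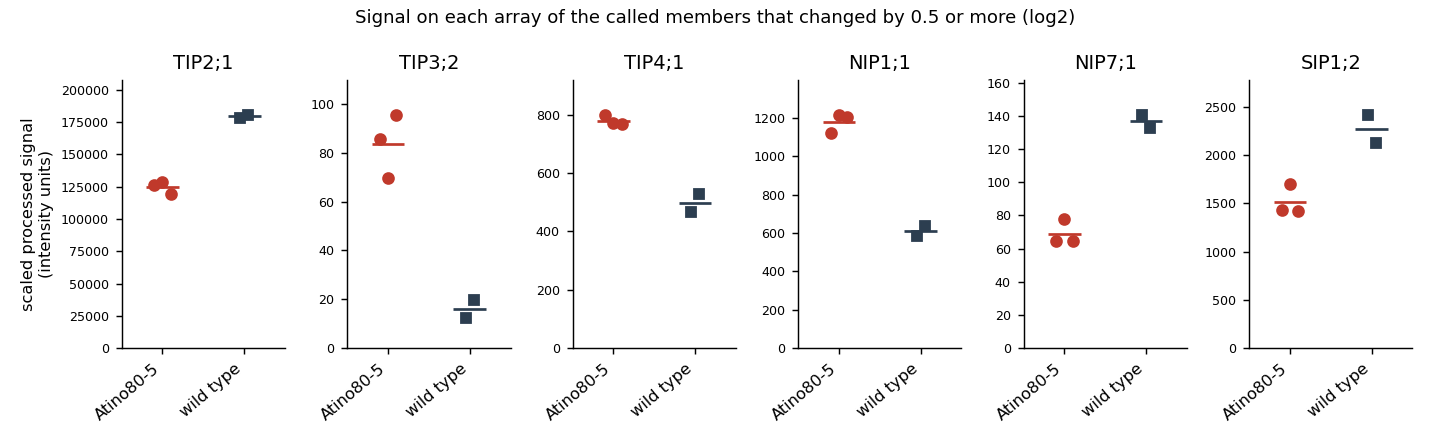
Scaled processed signal (vertical axis, intensity units from 0, a separate scale for each gene) on the 3 Atino80-5 arrays (red circles) and the 2 wild type arrays (dark squares) for the 6 called members that changed by at least 0.5 on the log2 scale, and horizontal bars are means. The genotypes do not overlap in any panel, and only TIP3;2, at 69.8 to 95.5 in Atino80-5 and 12.2 to 19.8 in wild type, differs by more than 2-fold.

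NIP1;1 (AT4G19030) and NIP1;2 (AT4G18910), which form a subgroup of the NIPs, changed in opposite directions. The first of them, whose loss makes Arabidopsis tolerant of arsenite, had signals of 1120.2, 1215 and 1203 in Atino80-5, against 586 and 634 in wild type. It rose by 0.95 ± 0.057 (1.93-fold, adjusted p = 0.00031, limma). The other, which transports an aluminium and malate complex in roots, had signals of 1532, 1723 and 1730.4 in Atino80-5, against 2287 and 2295 in wild type. Every mutant array was below wild type, a fall of 0.47 ± 0.065 (1.38-fold, adjusted p = 0.0040).

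The boric acid channels also split. NIP5;1 (AT4G10380), which takes up boric acid in roots, had signals of 1880, 1865 and 1832 in Atino80-5, against 1458 and 1412 in wild type, and rose by 0.37 ± 0.030 (1.30-fold, adjusted p = 0.00069). NIP6;1 (AT1G80760), which distributes boric acid to young shoot tissue, had signals of 3817, 3868 and 3691 in Atino80-5, against 3293 and 3182 in wild type. The genotypes did not overlap, and the rise was 0.23 ± 0.035 (1.17-fold, adjusted p = 0.0054). NIP7;1 (AT3G06100), a boric acid channel of developing anthers, had signals of 64.5, 78.0 and 64.8 in Atino80-5, against 141 and 133 in wild type. The genotypes lay far apart, with a fall of 0.99 ± 0.10 (1.99-fold, adjusted p = 0.0015), or of 0.58 with normexp background correction. NIP2;1 (AT2G34390), a root gene induced by low oxygen, had signals of 19.3, 18.4 and 11.5 in Atino80-5, against 36.8 and 20.8 in wild type, and NIP3;1 (AT1G31885) changed by -0.053. The low-oxygen gene was not called at -0.80 ± 0.35 (adjusted p = 0.12), and wild type array 1 stood above the other 4 arrays.

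The SIPs were lower throughout. SIP1;2 (AT5G18290) had signals of 1431, 1695 and 1420.3 in Atino80-5, against 2416 and 2122 in wild type, and its fall of 0.58 ± 0.11 (1.499-fold, adjusted p = 0.0095) was 0.49 and not called without wild type array 1. SIP1;1 (AT3G04090) had signals of 13085, 13169 and 13126 in Atino80-5, against 13954 and 14636 in wild type. The mutant arrays lay just below wild type, and the fall of 0.12 ± 0.032 (1.09-fold, adjusted p = 0.028) was found at both of its probes. SIP2;1 (AT3G56950) had signals of 3529.7, 3568 and 3588 in Atino80-5, against 4095 and 3963 in wild type, and fell by 0.18 ± 0.029 (1.13-fold, adjusted p = 0.0064). The smallest calls of the family were lost in fits with 1 array left out, which also have less precision. SIP1;1 was not called without any 1 of the Atino80-5 arrays or wild type array 2, nor gamma-TIP without Atino80-5 array 2 or 3 or either wild type array. The changes were then -0.12 to -0.088 for the SIP gene and -0.15 to -0.098 for gamma-TIP. With quantile normalization gamma-TIP stood at -0.025 (adjusted p = 0.62), and the authors' value table gave -0.023 (adjusted p = 0.65), and with normexp at -0.10 (adjusted p = 0.092). The SIP gene stood at -0.066 with normexp (adjusted p = 0.16), and -0.087 with quantile normalization (adjusted p = 0.068). From the authors' value table it was -0.090 (adjusted p = 0.062).

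Of 7 genes whose products traffic, mark or phosphorylate aquaporins, 1 was higher, 3 were lower and 3 not called. This called share equals the 57.1% of all genes tested, of which 30.7% were higher and 26.4% lower. TSPO, a stress-induced membrane protein that binds PIP2;7 and directs it to degradation, had signals of 60.0, 60.8 and 38.0 in Atino80-5, against 568 and 576 in wild type. It fell by 3.47 ± 0.24 (11.1-fold, adjusted p = 0.00043, limma), while that aquaporin's own gene was not called. SYP121, a syntaxin that helps deliver PIPs to the plasma membrane, rose by 0.84 ± 0.071 (1.79-fold), with signals of 21391, 21322 and 18769.6 in Atino80-5, against 11654 and 11253 in wild type. RMA1, a ubiquitin ligase of the endoplasmic reticulum that holds back PIP2 proteins, had signals of 18008, 18116 and 18460.5 in Atino80-5, against 24345 and 26153 in wild type. The groups did not overlap. It fell by 0.47 ± 0.041, and the receptor co-kinase gene BAK1 fell by 0.13 ± 0.024. SYP61, OST1 and SIRK1 were not called, with changes of 0.0097, 0.013 and -0.10.

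Borate exporters work beside the NIP boric acid channels. Of 6 tested, 2 were higher, 3 lower and 1 not called, and BOR6 had no probe matched here. Over all genes tested 57.1% were called, 30.7% higher and 26.4% lower. BOR7 had signals of 35.9, 39.5 and 35.5 in Atino80-5, against 134 and 134 in wild type. BOR5 had signals of 193, 171 and 164 in Atino80-5, against 545 and 510.4 in wild type. Neither gene's genotypes overlapped, and they fell 3.62-fold and 3.01-fold, while BOR1, the xylem loading exporter, rose by 0.16 ± 0.037. BOR3 fell by 0.20 ± 0.025. Of 7 proton pump genes of the tonoplast and plasma membrane, 5 were lower, 0 higher and 2 not called, and 0 were higher at an unadjusted p under 0.05, beside 26.4% of all genes lower and 30.7% higher. AHA3, VHA-A2, VHA-A and AHA1, subunits of the vacuolar and plasma membrane pumps, fell by 0.18, 0.14, 0.12 and 0.18. The list's median of -0.13 stood beside 0.0071 for all genes. Aquaporin changes of this size moved with the scaling. TIP1;1, at -0.13, stood at -0.025 with quantile normalization and -0.18 with median scaling. PIP2;1, at -0.088, stood at -0.0050 and -0.15 in the same settings. Genes of the other lists were not refitted under another scaling, so whether the pump changes depend on it was not tested.

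**Figure D4:**
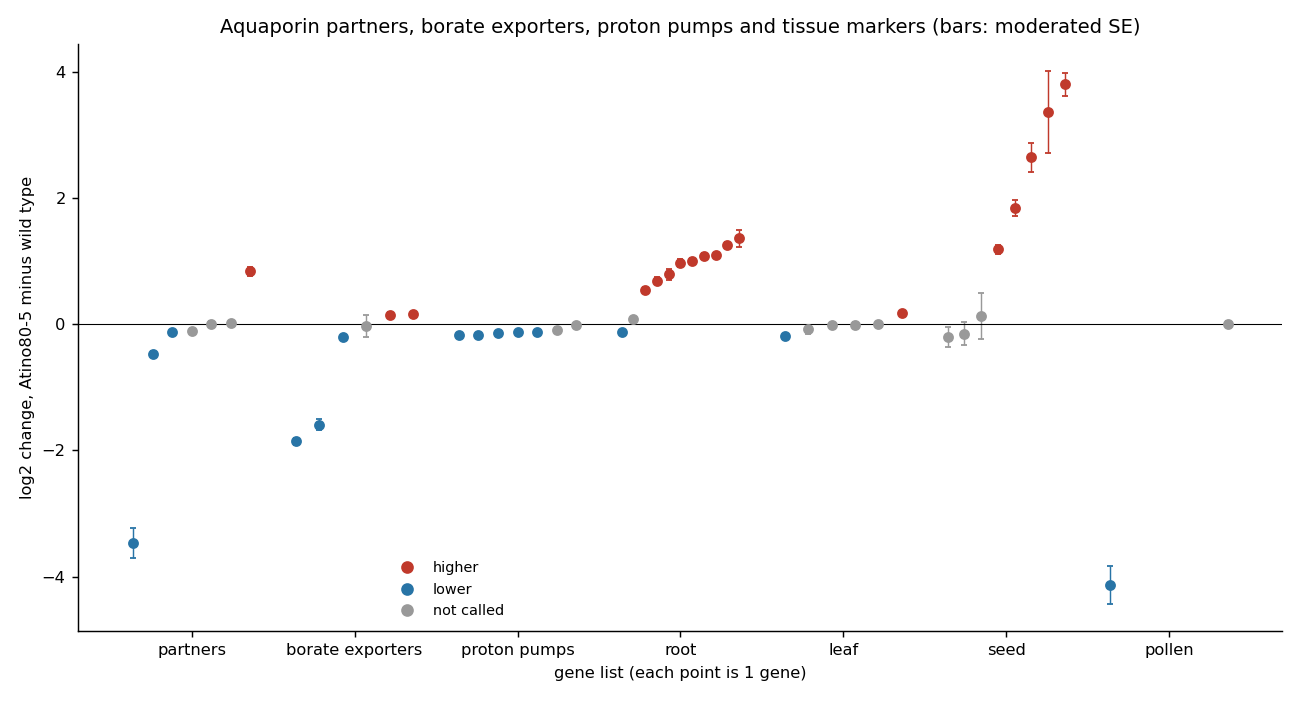
Log2 change (vertical axis, Atino80-5 minus wild type, bars for the moderated SE) of each tested gene of the 7 other lists (horizontal axis), with red called higher, blue lower and grey not called. Of the 11 root markers 9 were higher, and the leaf markers lie between -0.19 and 0.18. The points of CRU2, OLEO1, SESA1 and CNGC18 are fitted values, for which the text gives bounds.

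Tissue markers were measured beside the family, since several called members are root or seed genes. Like the other lists, they were chosen with earlier results of these data known, so their counts are not an independent measure. Of 11 root markers 9 were higher, 1 lower and 1 not called, beside 30.7% of all genes higher and 26.4% lower. Their median change was 0.97. Their summed signal was 15949 to 16001 on the Atino80-5 arrays, against 13153 to 13538 in wild type. Every root sum in the mutant was thus above both in wild type. The largest part of the sums was SCR, at 7236, 7090 and 6928 in Atino80-5, against 7692 and 7671 in wild type. SCR was called lower (-0.12), and SHR was not called (0.077). The next largest part was CASP1, at 3786, 3843 and 3988 in Atino80-5, against 1860 and 2106 in wild type. The root meristem gene PLT2 had signals of 90.7, 92.5 and 92.9 in Atino80-5, against 43.1 and 43.2 in wild type. It rose by 1.09 ± 0.026, and the root hair genes EXPA18, PRP3 and EXPA7 by 1.25, 1.08 and 1.01. The part of the root markers in the rises of PIP2;4, TIP2;3, TIP4;1, NIP1;1 and NIP5;1 was not tested. Among other members described above as active in roots, TIP2;2, NIP1;2 and PIP1;2 were lower, and PIP2;1, PIP2;2 and NIP2;1 were not called. Of 6 leaf photosynthesis markers, 1 was higher, 1 lower and 4 not called, beside 57.1% of all genes called, with a median of -0.015 and a summed signal of 2943670 to 3039660 in Atino80-5, against 3098510 to 3150010 in wild type. LHCB2.1 rose by 0.18, PSBO1 fell by 0.19, and CAB3 and LHCA1 were not called (-0.082 and -0.019).

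Among the seed markers the storage protein gene CRA1 rose by 1.18 ± 0.068 (2.27-fold, adjusted p = 0.00028, limma). CRU2, OLEO1 and SESA1 passed the filter through Atino80-5 arrays alone and were not well above background on a wild type array. They were at least 3.76-fold, 1.89-fold and 1.84-fold higher, without a p-value, since the fit used wild type values below that level. These bounds set the Atino80-5 mean against the lowest signal well above background in wild type. Of 8 pollen markers only 2 were tested. The 1 called lower, CNGC18, passed the filter through wild type arrays alone, so this count was not set beside all genes. CNGC18 was at least 4.03-fold lower, likewise without a p-value, with no Atino80-5 array well above background, and AHA8 was not called (0.0075). The pollen list's summed signal was 1114 to 1505 in Atino80-5, against 1117 to 1162 in wild type. VGD1 stood at 8.67, 464 and 5.01 in Atino80-5, against 3.48 and 4.70 in wild type, high on 1 mutant array only, while VGDH1, ANX1, ANX2 and SPIK were not well above background on any array.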

How the data were processed

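RNA was labelled with Cy3 and hybridised to 1-colour Agilent arrays, 1 per sample, per the labels' protocols. The deposited scanner files give each spot's processed signal, an intensity after background subtraction and spatial detrending on that array alone, per the file headers. The headers name Agilent Feature Extraction 10.7.3.1 and the submitters' processing notes 9.1. The authors' deposited value table holds log2 values with columns whose medians were 9.6216, 9.6213 and 9.6213 for Atino80-5 and 9.6208 and 9.6213 for wild type. They correlated with each array's log2 processed signal at 0.9994 or more and were read as quantile normalized. Their direction is that of single samples, and they served as an alternative.

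Here 1417 control spots and 7 to 14 outlier spots per array were left out, spots of a probe averaged, and each array's 75th percentile subtracted on the log2 scale. Probes well above background on at least 2 of 5 arrays were kept (35203). The accession of 34285 of 43603 probes matched 1 locus of the RefSeq gene table (TAIR10.1, used for names and neighbours only, as the array names another build), and 9318 matched none. The brightest kept probe over all arrays represented a gene and was held in every alternative except the probe means. Probe sequences were not used, so close copies may share signal.

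Genotypes were compared with limma 3.58.1 under R 4.3.3, whose linear model and moderated test had 3 residual degrees of freedom, with Benjamini-Hochberg adjustment over all 26657 genes, and separately over all kept probes. The script was tested on simulated data. The members and the 7 other lists (54 genes) were chosen with earlier results of these data known. The array values are given for called members with a change of at least 0.5 and for the brightest called member of each subfamily, and up to 4 members of each other list with the smallest p are named; values of other genes were chosen after they were seen. Normexp used the median spot signal with an offset of 50 and was chosen after the files were seen. The other alternatives are listed in the closing section. The number of arrays limits the precision.

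Replicate numbers 1 and 2 occur in both genotypes. Nothing in the labels says that a number marks a shared culture, batch or day.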

Additional observations from a re-analysis of the deposited data

How the results depend on the processing

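The counts of 8 higher and 13 lower aquaporins were recomputed with normexp background correction, quantile normalization, median scaling, probe means per gene, no filter, a filter at 5 of 5 arrays, trended and robust eBayes, the slide as a block, the authors' value table, and without each array. They ran from 7 to 9 higher and from 11 to 15 lower in these. Without 1 array, 7 to 8 were higher and 11 to 12 lower, and over all genes 6311 to 7898 were higher and 4878 to 6627 lower, against 8189 and 7040. With the replicate number as a block (the replicate block), 8 aquaporins were higher and 8 lower, and 6328 and 4904 genes over the whole array; this fit leaves 1 residual degree of freedom. Deviations of same-numbered arrays from their genotype means correlated at 0.038 and 0.0051. The deviations of the 2 wild type arrays mirror each other, so these values can show little of a shared batch. The arrays were treated as sharing only a number because the labels name no pairing. Of the 21 called aquaporins, 15 were called in the same direction under every alternative that tested them, which was all 15 except for TIP3;2, which the filter at 5 of 5 arrays removed. The others were PIP1;4 and SIP2;1, lost in the replicate block (adjusted p = 0.073 and 0.059), SIP1;2, lost there (0.068) and without wild type array 1 (0.055), and TIP1;1, SIP1;1 and TIP3;1, not called in 10, 10 and 7 alternatives. Of the 12 not called, PIP1;5, PIP2;1, PIP2;3 and TIP1;2 gained a call in 3, 1, 4 and 1 alternatives. The cause was not tested. No aquaporin's called change reversed. Slide 2 held Atino80-5 array 3 alone, and slide 1, with 2 arrays of each genotype, gave 8 higher and 11 lower. The slide as a block thus gave the same values as leaving out Atino80-5 array 3. Quantile normalization and the authors' value table were also nearly alike, so the tallies of alternatives count some settings more than once. Signal over background limited TIP1;3 and NIP4;1, which were not tested, and the precision of NIP2;1, TIP5;1 and NIP4;2.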
